A study of Mus musculus with 17 samples.

Results

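RNA of colon macrophage preparations from wild-type mice given a broad-spectrum antibiotic for 7 days and then dextran sulfate sodium (DSS) for 6 days was compared with RNA of the same preparations from wild-type mice whose labels name no treatment. DSS in the drinking water injures the colonic epithelium and is a widely used model of colitis. The comparison holds 6 of the 17 libraries of the series, chosen by their titles alone: 3 of antibiotic plus DSS (replicates 10, 11 and 12) and 3 untreated (replicates 1, 2 and 3). All mice were C57BL/6(h-2b) and 8 weeks old, and each title carries 1 mouse number. The p-values measure the spread between samples of a group, as estimated over all 17 libraries. The remaining 11 libraries came from wild-type mice given DSS without antibiotic and from MCJ-deficient mice under the 3 conditions. MCJ is the mitochondrial protein encoded by Dnajc15. These 11 libraries entered the fit for its estimate of spread, and also the low-count filter and the scaling. No group received the antibiotic alone, so in the main comparison the antibiotic and DSS cannot be told apart, and the labels do not say which antibiotic was given. The cells were released from colon tissue with collagenase type IV and washing steps, and the protocols name no sorting step.

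The healthy colonic lamina propria holds resident macrophages, which are renewed from blood monocytes and kept in check by interleukin 10. When the barrier is breached, Ly6C-high monocytes and neutrophils enter and make interleukin 1, tumour necrosis factor, chemokines and proteases, while the epithelium turns on antimicrobial lectins. The absorptive colonocytes above them run on mitochondrial oxidation of butyrate made by bacteria.

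The untreated libraries had almost no counts of macrophage markers. The 18 macrophage markers summed to 5926, 883 and 6732 CPM (counts scaled to a common library total, here of nuclear-encoded counts) in antibiotic plus DSS replicates 10, 11 and 12, against 22.9, 19.9 and 50.7 in untreated replicates 1, 2 and 3, and Cd163, Aif1 and Timd4 had no count in any untreated library. The 18 colonocyte markers summed to 17951, 34655 and 19730.5 CPM in antibiotic plus DSS, against 57759, 50832 and 57868 CPM in untreated mice. In every library of both groups the colonocyte sum exceeded the macrophage sum, so the markers do not show the labelled macrophages as the main source of RNA. Antibiotic plus DSS replicate 11 had the lowest macrophage sum and the highest colonocyte sum of its group. Of the other lists, neutrophil, dendritic cell, eosinophil, mast cell, T and NK cell, endothelial, adipocyte, glial, enteroendocrine and red blood cell sums were higher in all 3 antibiotic plus DSS libraries than in all 3 untreated libraries, while B cell, plasma cell, goblet, crypt, fibroblast and smooth muscle sums overlapped. The monocyte sum overlapped too, and Plac8 made up most of it in the untreated libraries. In bulk RNA, fewer cells of a type and less RNA per cell cannot be told apart, and the part of cell make-up in the results below was not tested.

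**Figure D1:**
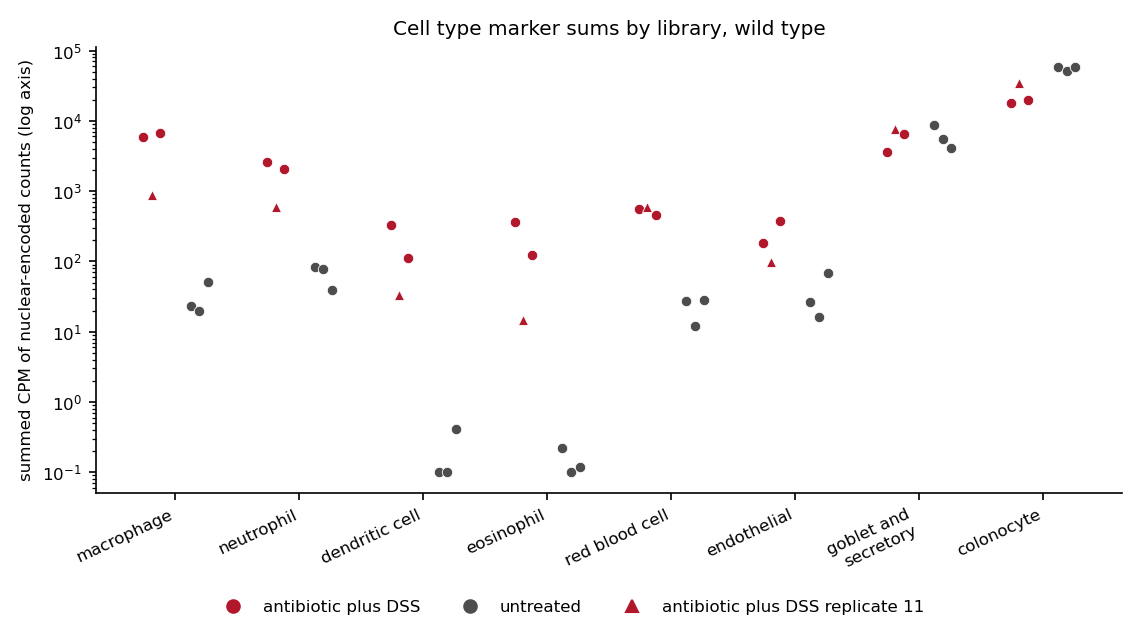
Summed CPM of nuclear-encoded counts (log axis) for 8 cell type marker lists; each point is 1 library, with antibiotic plus DSS left of untreated, and sums under 0.1 are drawn at 0.1. The macrophage, neutrophil, dendritic cell and eosinophil sums of all 3 antibiotic plus DSS libraries lie above all 3 untreated libraries, the colonocyte sums lie below them, and the goblet sums overlap.

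Libraries were of like depth, with 30645828 to 36461771 counts in antibiotic plus DSS and 29194744 to 33930200 in untreated mice, but more genes reached 10 counts in antibiotic plus DSS (14226 to 14763) than in untreated libraries (10075 to 13000). The long noncoding RNA Xist, made from the inactive X chromosome, was counted 2, 2 and 2 times in antibiotic plus DSS replicates 10, 11 and 12, against 2048, 1100 and 1 count in untreated replicates 1, 2 and 3, and the Y-linked Ddx3y had 2244, 934 and 1839 counts in antibiotic plus DSS, against 0, 1 and 375 in untreated mice. Untreated replicates 1 and 2 thus differ from the other 4 libraries in sex-linked transcripts, and the part of this in the results was not tested; without both of them, 994 genes were higher and 391 lower, and 28 of the 142 called genes named below missed the threshold.

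Antibiotic plus DSS went with large gains in transcripts of leukocytes and inflammation and with smaller losses in transcripts of absorptive epithelium and of nuclear-encoded mitochondrial proteins. Of 16958 genes tested, 2169 were higher in antibiotic plus DSS (12.8%) and 1240 were lower (7.31%), 20.1% in either direction, at a Benjamini-Hochberg adjusted p under 0.05 in edgeR's quasi-likelihood test. The genes that rose had a median log2 fold change of 3.68, and 1200 of them exceeded 3. The genes that fell had a median of -1.33, and 79 went below -3. These are fitted values, which are no bound for genes with no untreated count (2192 of the 16958 tested). The part of such genes in this contrast was not tested. The groups did not overlap in 3199 of the 3409 called genes, beside 5678 of all 16958 genes (33.5%). Scaling by library totals in place of TMM factors (trimmed mean of M-values) moved the median of all genes from 0.27 to 0.61 on the log2 scale and gave 2699 genes higher and 542 lower, so the share of higher genes among the calls was 83.3% against 63.6%. Without antibiotic plus DSS replicate 10, 1410 genes were higher and 708 lower, and without replicate 12, 1688 were higher and 791 lower.

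**Figure D2:**
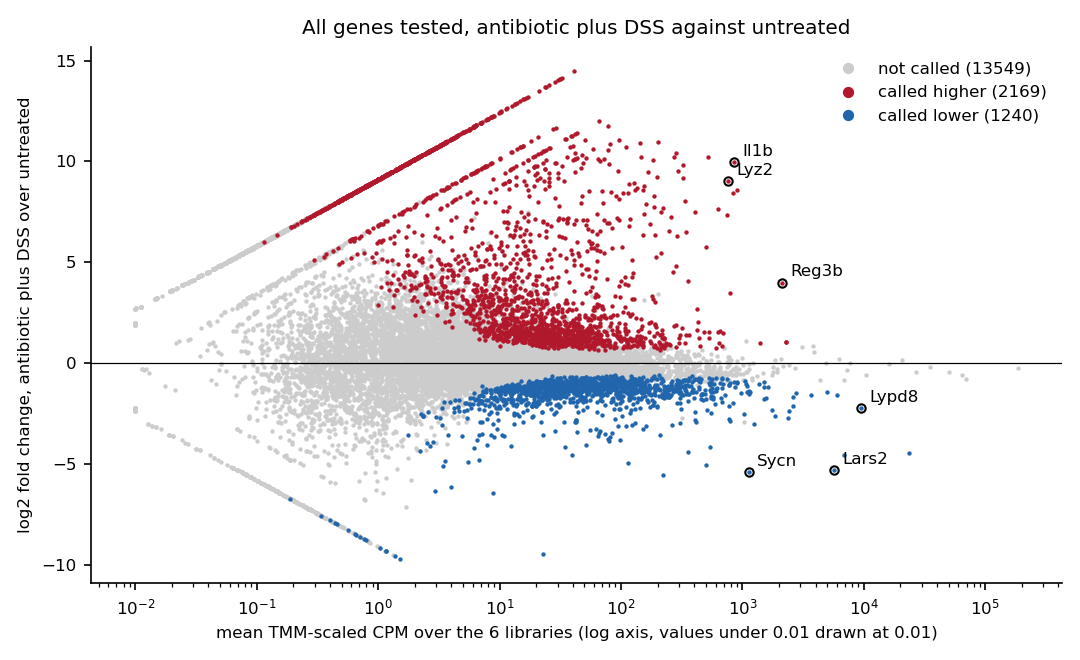
Log2 fold change of antibiotic plus DSS over untreated (vertical axis) against the mean level over the 6 libraries in CPM (horizontal log axis). Each point is 1 gene tested that had a count in any of these libraries. Colours show whether it was called higher, called lower or not called. Increases reach further from 0 than decreases, and the furthest include genes with no untreated count, whose fitted values are no bound. Lars2 and Sycn, labelled with 4 other genes, are among the largest decreases of highly expressed genes.

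Levels below are TMM-scaled CPM over all counts, always in the order of replicates 10, 11 and 12 for antibiotic plus DSS and 1, 2 and 3 for untreated mice. Fold changes are on the log2 scale, each antibiotic plus DSS over untreated with n = 3 in each group. The ± value beside a fold change is an approximate standard error: its absolute size divided by the square root of the test's F statistic. Every adjusted p is from edgeR's quasi-likelihood test with Benjamini-Hochberg adjustment over all genes tested. Where a gene had no count in any untreated library, a lower bound is given against a floor of 3 counts over that group. Where it had 1 to 3 counts, the ratio of pooled levels is given with its 95% interval for counting error. A pooled level is the group's summed count over its summed TMM-scaled library totals. In every list said below to have none lower, at most 1 member was lower at an unadjusted p under 0.05, by DESeq2 or by limma.

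Macrophage genes rose together: 16 of 18 markers tested passed the test, all upward, with a median log2 fold change of 7.84 (7.17 with genes at 0 in the untreated group set to their bound), beside 0.27 over all genes. Adgre1 (NCBI gene 13733, chr17:57358581-57483529 in GRCm38), which encodes the F4/80 antigen, had 166, 18.3 and 117 CPM in antibiotic plus DSS, against 0.0409, 0.0973 and 0 CPM in untreated mice. Its level was 2304-fold (95% counting interval 788 to 11176) higher (adjusted p = 6.29e-06). Replicate 11 lay several-fold under replicates 10 and 12, yet far above every untreated library. Lyz2, the macrophage lysozyme, had 2072, 208 and 2273 CPM in antibiotic plus DSS, against 5.32, 0.827 and 2.48 CPM in untreated mice, and its log2 fold change was 9.04 ± 0.94 (adjusted p = 7.97e-06). C1qb and C1qc encode chains of complement C1q, a product of resident macrophages. C1qc had 169.5, 40.9 and 222 CPM in antibiotic plus DSS, against 0.0409, 0.0486 and 0.268 CPM in untreated mice (log2 fold change 10.13 ± 1.04, adjusted p = 6.91e-06), and C1qb rose by 10.19 ± 1.01 (adjusted p = 5.74e-06). Msr1, a scavenger receptor, rose by 10.34 ± 1.11 (adjusted p = 1.02e-05). Csf1r, the receptor for the survival factor of macrophages, had 187, 28.2 and 106 CPM in antibiotic plus DSS, against 0, 4.91 and 0.0382 CPM in untreated mice, where replicate 2 alone stood above 1 CPM. Its log2 fold change of 6.05 ± 1.24 (adjusted p = 0.00237) became 12.16 without that library. The markers Mertk and Timd4 did not pass the test.

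Genes of newly arrived monocytes rose as well, with 7 of 8 markers higher and 1 lower. Ccr2 (NCBI gene 12772, chr9:124101918-124109140), the chemokine receptor that lets monocytes leave the marrow, had 93.2, 5.62 and 72.7 CPM in antibiotic plus DSS and no count in the untreated libraries. It was at least 1312-fold higher (adjusted p = 1.85e-05). Ly6c2, which encodes the Ly6C antigen of inflammatory monocytes, had 121, 30.4 and 74.9 CPM in antibiotic plus DSS, against 6.84, 0.535 and 11.5 CPM in untreated mice (log2 fold change 3.58 ± 0.72, adjusted p = 0.00207). Vcan, encoding versican, was 1766-fold (95% counting interval 489 to 14588) higher (adjusted p = 1.12e-05). The calcium-binding protein gene S100a4 rose by 5.33 ± 1.04 (adjusted p = 0.00167) and the clotting factor gene F13a1 by 10.17 ± 1.30 (adjusted p = 4.39e-05). Plac8 went the other way, with 783, 551 and 545 CPM in antibiotic plus DSS, against 1681, 2059 and 1215 CPM in untreated mice, and a log2 fold change of -1.40 ± 0.30 (adjusted p = 0.0035).

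Neutrophil genes followed, with 10 of 12 markers tested higher and none lower (median log2 fold change 8.74, and 8.44 with genes at 0 at their bound). S100a8 and S100a9 encode the subunits of calprotectin, the faecal marker of intestinal inflammation. S100a9 had 266, 106 and 326 CPM in antibiotic plus DSS, against 0.409, 0.438 and 0.612 CPM in untreated mice (log2 fold change 8.88 ± 0.83, adjusted p = 3.99e-06), and S100a8 rose by 8.29 ± 0.81 (adjusted p = 5.40e-06). Csf3r, the receptor for granulocyte colony-stimulating factor, was 2158-fold (95% counting interval 387 to 85252) higher (adjusted p = 2.27e-06). Retnlg, a resistin-like gene of neutrophils, had 766, 32.6 and 402 CPM in antibiotic plus DSS, against 0, 0.340 and 0.268 CPM in untreated mice (log2 fold change 10.95 ± 1.23, adjusted p = 1.59e-05). All these transcripts were lowest in replicate 11 of the antibiotic plus DSS group, without overlap with untreated mice. Most of the summed neutrophil level of the untreated libraries was Ly6g, with 32.3, 65.4 and 23.8 CPM in antibiotic plus DSS and 59.8, 63.95 and 23.7 CPM in untreated mice.

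Of the markers of other leukocytes, 4 of 8 dendritic cell markers rose, led by Itgax, which encodes CD11c and is shared with macrophages: it had 140.3, 9.29 and 39.5 CPM in antibiotic plus DSS and no untreated count, at least 1422-fold higher (adjusted p = 1.84e-05). Ccr7, the receptor that takes dendritic cells to lymph nodes, was 845-fold (95% counting interval 234 to 6981) higher (adjusted p = 2.21e-05). Of the eosinophil markers, 3 of 4 tested rose, among them the eotaxin receptor Ccr3, with 185, 5.68 and 57.5 CPM in antibiotic plus DSS, against 0.123, 0 and 0.0764 CPM in untreated mice (log2 fold change 10.15 ± 1.32, adjusted p = 4.99e-05). In the summed levels of both lists replicate 10 was highest and replicate 11 lowest. Of the mast cell markers, 2 of 7 rose, and Mcpt1, a protease of mucosal mast cells, had 11.3, 18.8 and 3.20 CPM in antibiotic plus DSS and no untreated count (at least 266-fold higher, adjusted p = 0.00144). For T and NK cells, 3 of 9 markers tested rose, all of T cells: Cd4 had 1.86, 1.68 and 7.29 CPM in antibiotic plus DSS and no untreated count (adjusted p = 0.00468). None of 5 B cell and none of 5 plasma cell markers tested passed in edgeR, DESeq2 or limma, with 1 and 2 of them higher and none lower at an unadjusted p under 0.05. The plasma cell sum was 3118, 90.6 and 488 CPM in antibiotic plus DSS and 11.4, 2.64 and 342 CPM in untreated mice, with overlap. The immunoglobulin A heavy chain gene Igha ranged widely, with 973, 27.7 and 115 CPM in antibiotic plus DSS and 1.96, 0.0486 and 101 CPM in untreated mice (adjusted p = 0.155). Without antibiotic plus DSS replicate 10, 2 dendritic cell markers were higher, without untreated replicate 1, 5 T and NK cell markers, and without untreated replicate 3, 3 plasma cell markers. In the fit of the compared libraries 2 dendritic cell markers and 1 T and NK cell marker were higher, and in limma Ccr3 did not pass (adjusted p = 0.0621).

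Haemoglobin transcripts rose in 3 of 4 red blood cell markers tested (median log2 fold change 4.02). Hba-a1, one of a near-identical pair of alpha globin genes between which reads may be split, had 134, 125 and 103 CPM in antibiotic plus DSS, against 4.91, 3.36 and 6.80 CPM in untreated mice (log2 fold change 4.58 ± 0.69, adjusted p = 1.88e-04). The 3 libraries of each group lay close together and did not overlap between groups, and replicate 11 was not low. In the stroma fewer genes passed: 1 of 9 fibroblast, 4 of 8 smooth muscle and pericyte, and 3 of 10 endothelial markers rose, and none fell. Over all genes 12.8% were higher and 7.31% lower. Pecam1, the adhesion molecule CD31, had 50.8, 23.9 and 45.4 CPM in antibiotic plus DSS, against 1.92, 1.99 and 10.3 CPM in untreated mice (log2 fold change 3.07 ± 0.62, adjusted p = 0.00214). Pdpn, encoding podoplanin, rose by 3.69 ± 0.84 (adjusted p = 0.00493). These counts turned on single libraries: 5 fibroblast and 6 endothelial markers were higher without untreated replicate 3, none of smooth muscle and 1 endothelial marker without antibiotic plus DSS replicate 12, 5 endothelial markers without replicate 11, and 1 smooth muscle marker without untreated replicate 1 or 2.

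Cytokine genes rose with few exceptions: 18 of 24 tested were higher and 1 was lower, with a median log2 fold change of 6.33 (4.97 with genes at 0 at their bound). Il1b (NCBI gene 16176, chr2:129364569-129371164), encoding interleukin 1 beta, had 2799.9, 435 and 1855 CPM in antibiotic plus DSS, against 0.819, 1.22 and 2.98 CPM in untreated mice (log2 fold change 9.98 ± 0.80, adjusted p = 2.27e-06). Il1a had 1138, 101 and 688 CPM in antibiotic plus DSS, against 2.41, 0.438 and 0.497 CPM in untreated mice (log2 fold change 9.16 ± 0.96, adjusted p = 7.97e-06). Tnf, encoding tumour necrosis factor, started from a measurable level, with 379, 95.7 and 224 CPM in antibiotic plus DSS, against 16.5, 15.5 and 4.36 CPM in untreated mice (log2 fold change 4.26 ± 0.56, adjusted p = 6.22e-05). In each of these genes replicate 10 was highest, replicate 11 lowest, and all 3 stood above every untreated library. The anti-inflammatory Il10 rose in the same libraries, with 406, 47.1 and 400.0 CPM in antibiotic plus DSS, against 0.205, 0.195 and 0.0382 CPM in untreated mice (log2 fold change 10.93 ± 1.02, adjusted p = 4.08e-06). Osm, encoding oncostatin M, rose by 8.76 ± 0.84 (adjusted p = 5.17e-06). Csf3, encoding granulocyte colony-stimulating factor, was 1204-fold (95% counting interval 333 to 9943) higher (adjusted p = 1.59e-05). The 1 cytokine gene that fell, named for that reason, was Il18, which colonocytes express: it had 62.6, 89.9 and 67.5 CPM in antibiotic plus DSS, against 312, 413 and 243 CPM in untreated mice (log2 fold change -2.14 ± 0.35, adjusted p = 4.54e-04).

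Chemokines of both families rose. Of 14 CXC genes 8 were higher and none lower (median 4.28, and 3.63 with genes at 0 at their bound). Of 17 CC genes with Cx3cl1 12 were higher and 1, Ccl28, was lower (median 5.27, and 4.95 with genes at 0 at their bound). Cxcl2 (NCBI gene 20310, chr5:90903899-90905938), a ligand of the neutrophil receptor CXCR2, had 2892, 374 and 2118 CPM in antibiotic plus DSS, against 9.45, 2.92 and 1.83 CPM in untreated mice (log2 fold change 8.56 ± 0.86, adjusted p = 6.29e-06). Cxcl1, another such ligand, was at 335, 92.2 and 589 CPM in antibiotic plus DSS, against 65.4, 43.4 and 16.8 CPM in untreated mice, a smaller change from a higher start (log2 fold change 3.02 ± 0.58, adjusted p = 0.00154). Ccl3 and Ccl4 encode inflammatory chemokines of macrophages. Ccl4 had 586, 68.02 and 523 CPM in antibiotic plus DSS, against 0.327, 0.438 and 1.18 CPM in untreated mice (log2 fold change 9.21 ± 1.07, adjusted p = 1.84e-05), and Ccl3 rose by 7.73 ± 0.98 (adjusted p = 3.95e-05). Ccl2, a ligand of CCR2, had 47.2, 25.2 and 139.8 CPM in antibiotic plus DSS, against 0, 0.0486 and 1.38 CPM in untreated mice, of which replicate 3 held nearly all. Its log2 fold change of 7.15 ± 1.02 (adjusted p = 1.54e-04) became 11.43 without that library. Ccl9 rose by 5.27 ± 0.60 (adjusted p = 1.59e-05) and Ccl5, a ligand for T cells and monocytes, by 7.94 ± 1.22 (adjusted p = 2.36e-04). The epithelial Ccl20 had 5.24, 7.44 and 7.68 CPM in antibiotic plus DSS, against 1.60, 6.42 and 2.48 CPM in untreated mice, and did not pass (adjusted p = 0.286).

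Many cytokine and chemokine genes are known targets of the transcription factor NF-kB. Its motif, searched as GGNNTTTCC on both strands of the 250 bases before the start of each RefSeq gene, occurred in 11 of the 40 genes of these 3 lists that had a promoter window (27.5%; the lists hold 55 genes), against 1518 of all 27025 genes with a window (5.62%). A match describes the letters and does not show a site in use. Cxcl2 and Cxcl3 lie at neighbouring loci and Ccl9 on another chromosome, and their windows are shown from 5′ to 3′ in the direction of the gene, with the motif in capitals (RefSeq, GRCm38.p6). They lie at chr5:90903649-90903898 on the plus strand for Cxcl2, at chr5:90785851-90786100 on the plus strand for Cxcl3 and at chr11:83578637-83578886 on the minus strand for Ccl9. The window of Cxcl2 holds 2 matches that do not overlap, and those of Cxcl3 and Ccl9 hold 1 each.
Cxcl2: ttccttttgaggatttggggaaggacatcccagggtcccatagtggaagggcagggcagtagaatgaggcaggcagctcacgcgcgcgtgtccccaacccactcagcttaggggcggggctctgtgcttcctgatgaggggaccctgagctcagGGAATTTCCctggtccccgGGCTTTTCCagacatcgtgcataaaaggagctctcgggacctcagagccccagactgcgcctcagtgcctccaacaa
Cxcl3: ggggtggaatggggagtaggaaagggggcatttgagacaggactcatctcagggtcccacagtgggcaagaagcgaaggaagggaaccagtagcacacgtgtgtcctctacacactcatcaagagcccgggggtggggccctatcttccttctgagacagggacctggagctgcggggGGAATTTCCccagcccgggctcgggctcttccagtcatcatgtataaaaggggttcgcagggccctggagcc
Ccl9: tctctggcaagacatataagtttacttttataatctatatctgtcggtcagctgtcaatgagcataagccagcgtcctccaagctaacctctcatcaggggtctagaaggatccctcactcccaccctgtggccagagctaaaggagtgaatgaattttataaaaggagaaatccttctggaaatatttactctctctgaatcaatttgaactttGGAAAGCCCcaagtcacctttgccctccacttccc
Cxcl3 had 767, 60.9 and 499 CPM in antibiotic plus DSS, against 5.48, 0.438 and 0.459 CPM in untreated mice (log2 fold change 7.69 ± 1.10, adjusted p = 1.28e-04), and Ccl9 had 564, 60.9 and 505 CPM in antibiotic plus DSS, against 8.96, 9.87 and 10.4 CPM in untreated mice.

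Receptors and adhesion molecules of myeloid cells rose in number. All 12 genes of leukocyte adhesion and entry were higher (median 7.53), among them Itgb2, encoding the beta chain of the leukocyte integrins, with 149.7, 10.6 and 77.6 CPM in antibiotic plus DSS, against 0.0409, 0.0486 and 0 CPM in untreated mice (2710.4-fold (95% counting interval 750.0 to 22385) higher, adjusted p = 5.53e-06). Cd44, the hyaluronan receptor, had 1149.7, 82.5 and 489 CPM in antibiotic plus DSS, against 8.84, 9.00 and 3.67 CPM in untreated mice (log2 fold change 6.32 ± 0.72, adjusted p = 1.68e-05). Icam1, a ligand of those integrins, rose by 5.44 ± 0.92 (adjusted p = 5.57e-04). Of 18 Toll-like, NOD and related receptors 13 rose and none fell (median 4.09). Tlr4, the receptor for lipopolysaccharide, was even across each group, at 24.2, 23.9 and 23.01 CPM in antibiotic plus DSS, against 7.94, 5.20 and 6.12 CPM in untreated mice (log2 fold change 1.88 ± 0.40, adjusted p = 0.00285). Tlr2, the receptor for bacterial lipoproteins, had 309.8, 67.6 and 269 CPM in antibiotic plus DSS, against 13.02, 14.7 and 16.1 CPM in untreated mice (log2 fold change 3.88 ± 0.46, adjusted p = 2.21e-05). Nod2, a sensor of peptidoglycan, had 14.8, 3.21 and 8.80 CPM in antibiotic plus DSS and no untreated count, at least 206-fold higher (adjusted p = 1.24e-05). Clec7a, the beta-glucan receptor Dectin-1, rose by 8.48 ± 1.04 (adjusted p = 2.99e-05). Cd14, the co-receptor of Tlr4, rose by 5.77 ± 0.65 (adjusted p = 1.59e-05).

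Downstream of these receptors, 14 of 20 genes of the TNF and NF-kB pathway rose and none fell, with a median log2 fold change of 1.74. Tnfaip3, which encodes the inhibitor A20, had 543, 143 and 312 CPM in antibiotic plus DSS, against 49.8, 8.66 and 50.8 CPM in untreated mice (log2 fold change 3.19 ± 0.55, adjusted p = 6.99e-04). Nfkbia, encoding the inhibitor IkB alpha, had 1383, 559 and 1124 CPM in antibiotic plus DSS, against an already high 436, 415 and 223 CPM in untreated mice (log2 fold change 1.51 ± 0.34, adjusted p = 0.00405). Nfkbiz rose by 2.54 ± 0.46 (adjusted p = 8.93e-04). Of 10 inflammasome genes 3 were higher and 2 lower, beside 12.8% and 7.31% over all genes. Nlrp3, its sensor in myeloid cells, had 128, 25.9 and 95.7 CPM in antibiotic plus DSS, against 0.0819, 0.0486 and 0.0382 CPM in untreated mice (log2 fold change 10.44 ± 0.77, adjusted p = 1.84e-06). The adaptor Pycard fell, with 123, 165 and 139.9 CPM in antibiotic plus DSS, against 235, 373 and 245 CPM in untreated mice (log2 fold change -0.99 ± 0.30, adjusted p = 0.0278), and the call was lost without antibiotic plus DSS replicates 10 or 12 and without untreated replicate 2 (adjusted p 0.108, 0.0788 and 0.119). Casp1, whose protease cuts interleukin 1 beta and interleukin 18, was at 94.8, 131 and 87.7 CPM in antibiotic plus DSS and 122, 101 and 166 CPM in untreated mice, with overlap (adjusted p = 0.513). Of the inflammasome genes 1 was higher and none lower without antibiotic plus DSS replicate 10 or 12, and with library totals 3 were higher and none lower. In the fit of the compared libraries 9 TNF and NF-kB genes were higher.

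Of the interferon-stimulated genes 7 of 18 were higher and none lower (median 1.65), and the number higher was 1 without antibiotic plus DSS replicate 10, 3 without untreated replicate 3 and 4 without untreated replicate 2. Gbp2, a guanylate-binding protein induced by interferon gamma, had 205, 17.1 and 85.7 CPM in antibiotic plus DSS, against 2.46, 0.0486 and 3.94 CPM in untreated mice (log2 fold change 5.56 ± 1.47, adjusted p = 0.0124), but did not pass in limma (adjusted p = 0.267). The number of interferon-stimulated genes higher was 3 in limma and 1 in the fit of the compared libraries. All 12 MHC class II genes rose (median 7.14; 6.34 with genes at 0 at their bound). H2-Aa (NCBI gene 14960, chr17:34282744-34287823), the alpha chain of I-A, had 2016, 292 and 1426 CPM in antibiotic plus DSS, against 5.08, 1.12 and 12.6 CPM in untreated mice (log2 fold change 7.63 ± 1.00, adjusted p = 5.29e-05). Its partner H2-Ab1 rose by 7.22 ± 0.67 (adjusted p = 3.99e-06). Cd74, the invariant chain, had 1121, 196 and 737 CPM in antibiotic plus DSS, against 3.68, 5.16 and 14.1 CPM in untreated mice (log2 fold change 6.48 ± 0.70, adjusted p = 1.07e-05).

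Genes of classical and of alternative macrophage activation rose side by side. Of the classical list 10 of 12 were higher and none lower (median 6.27, and 6.21 with genes at 0 at their bound). Of the alternative list 16 of 17 were higher and none lower (median 9.31, and 6.72 with genes at 0 at their bound). Acod1, which makes itaconate, had 642, 81.7 and 373 CPM in antibiotic plus DSS, against 0.409, 0.340 and 0.268 CPM in untreated mice (log2 fold change 10.06 ± 0.84, adjusted p = 2.27e-06). Ptgs2, encoding cyclooxygenase 2, had 1358, 122 and 524 CPM in antibiotic plus DSS, against 1.51, 5.06 and 1.03 CPM in untreated mice (log2 fold change 8.05 ± 0.96, adjusted p = 2.34e-05). Nos2, the inducible nitric oxide synthase, stayed low, with 14.8, 3.36 and 5.41 CPM in antibiotic plus DSS, against 0.0819, 0.243 and 0 CPM in untreated mice (log2 fold change 6.24 ± 1.45, adjusted p = 0.00562). On the alternative side, Arg1, encoding arginase 1, had 51.6, 4.23 and 31.8 CPM in antibiotic plus DSS, against 0.982, 0 and 0.0764 CPM in untreated mice (log2 fold change 6.33 ± 1.29, adjusted p = 0.0023). Chil3, a chitinase-like gene with the near copy Chil4, had 669.9, 4.81 and 327 CPM in antibiotic plus DSS, against 0.450, 0.584 and 0.382 CPM in untreated mice (log2 fold change 9.47 ± 1.32, adjusted p = 1.02e-04). Replicate 11 lay far below replicates 10 and 12 here and still above every untreated library. Retnla had 28.8, 4.84 and 17.02 CPM in antibiotic plus DSS and no untreated count (at least 388-fold higher, adjusted p = 7.36e-05). Tgm2, encoding a transglutaminase, rose by 6.55 ± 0.69 (adjusted p = 7.97e-06). In limma Nos2, Arg1 and Chil3 did not pass (adjusted p = 0.254, 0.189 and 0.178), and in the fit of the compared libraries 6 classical genes were higher.

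**Figure D3:**
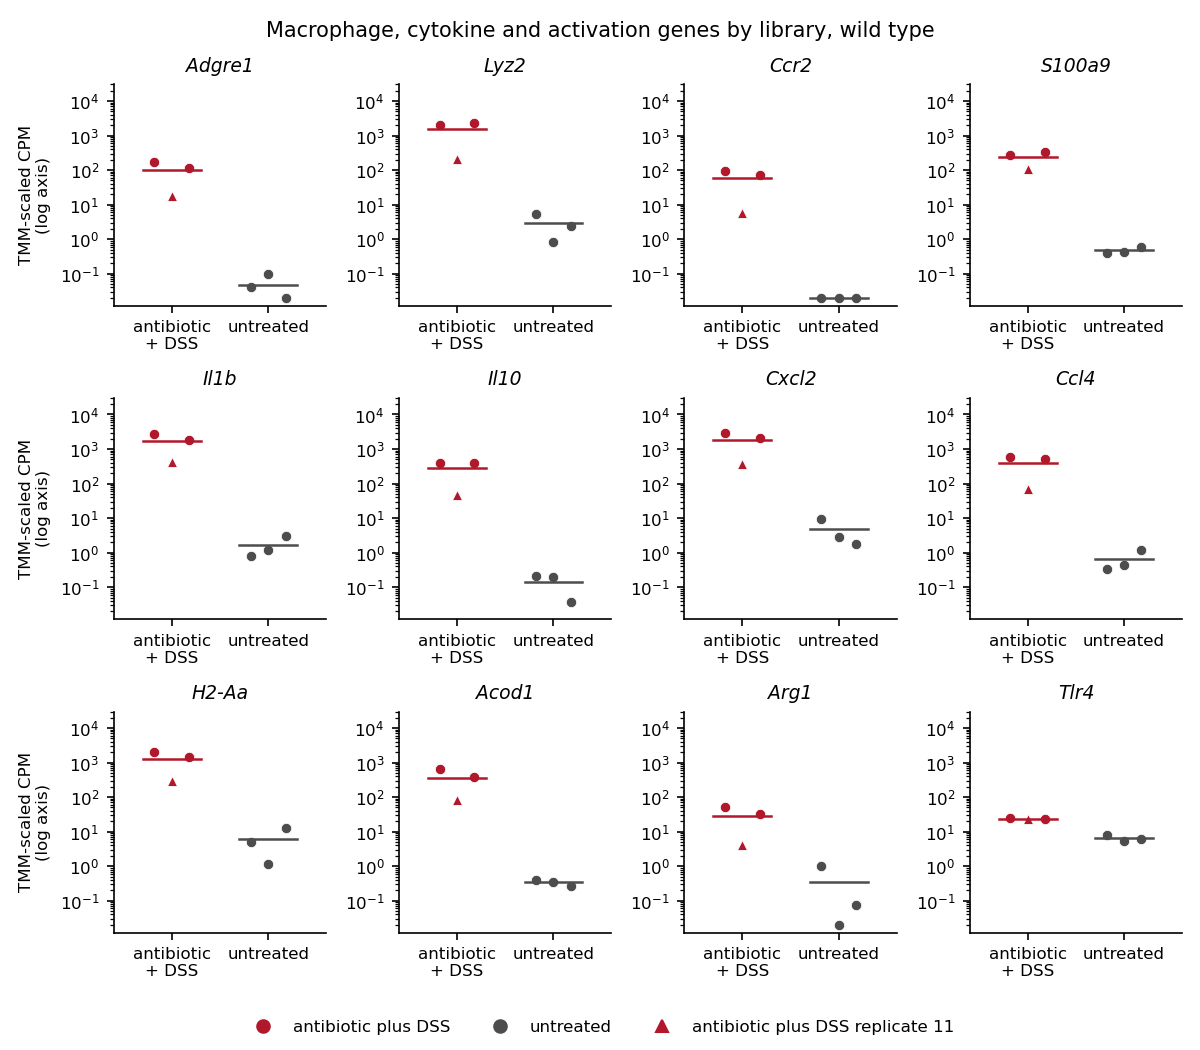
Levels of 12 genes in TMM-scaled CPM (log axis) by library, antibiotic plus DSS left of untreated; each point is 1 library, the bar is the group mean and levels under 0.02 CPM are drawn at 0.02. All 3 antibiotic plus DSS libraries lie above all 3 untreated libraries for each of these genes, and replicate 11, marked by a triangle, is the lowest of its group in 11 of the 12, Tlr4 being even.

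The machinery of phagocytosis and of its oxidants rose in the same libraries. Of 23 genes of Fc receptors, complement and phagocytosis 19 were higher and none lower (median 7.39, and 7.18 with genes at 0 at their bound). Fcgr3, a low-affinity receptor for immunoglobulin G, had 494, 49.7 and 336 CPM in antibiotic plus DSS, against 0.0819, 0.340 and 0.306 CPM in untreated mice (log2 fold change 10.23 ± 0.94, adjusted p = 3.99e-06). C5ar1, the receptor for complement C5a, rose by 9.91 ± 0.78 (adjusted p = 2.27e-06). Of 11 NADPH oxidase genes 6 were higher and none lower. Ncf1, which encodes the p47phox subunit, had 173, 15.1 and 57.7 CPM in antibiotic plus DSS and no untreated count (at least 1857-fold higher, adjusted p = 5.18e-06). Cybb, the catalytic subunit of phagocytes, had 263, 15.1 and 111 CPM in antibiotic plus DSS, against 0.0409, 0.195 and 0.115 CPM in untreated mice (log2 fold change 10.11 ± 1.18, adjusted p = 1.98e-05). Duoxa2, which matures the oxidase of epithelial cells, did not follow the macrophage genes by library, since replicate 11 was highest: it had 46.2, 60.5 and 25.2 CPM in antibiotic plus DSS, against 6.43, 4.33 and 5.81 CPM in untreated mice (log2 fold change 2.99 ± 0.46, adjusted p = 2.33e-04). Its partner Duox2 had 12.2, 25.5 and 8.56 CPM in antibiotic plus DSS, against 1.31, 8.95 and 1.15 CPM in untreated mice, with overlap, and missed the threshold (adjusted p = 0.0538).

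Most enzymes of lipid mediators and of the matrix rose. Of 14 prostaglandin and leukotriene genes 9 rose and 2 fell. Alox5ap, which hands arachidonic acid to 5-lipoxygenase, had 212, 16.6 and 148 CPM in antibiotic plus DSS, against 0.123, 0.0486 and 1.95 CPM in untreated mice (log2 fold change 7.42 ± 1.05, adjusted p = 1.10e-04). Hpgds, a prostaglandin D synthase, was at least 192-fold higher (adjusted p = 7.36e-05). Hpgd, which breaks prostaglandins down, fell, with 64.5, 141 and 102 CPM in antibiotic plus DSS, against 262, 128 and 223 CPM in untreated mice (log2 fold change -0.996 ± 0.342, adjusted p = 0.0481), and the call was lost without antibiotic plus DSS replicates 10 or 12 and without untreated replicates 1 or 3 (adjusted p 0.19, 0.114, 0.164 and 0.102). Of 16 matrix proteases and inhibitors 14 rose and none fell (median 8.25; 6.34 with genes at 0 at their bound). Mmp13, a collagenase, had 92.2, 15.8 and 74.1 CPM in antibiotic plus DSS, against 0.0819, 0.146 and 0.0382 CPM in untreated mice (log2 fold change 9.42 ± 0.96, adjusted p = 6.39e-06). Plau, encoding urokinase, rose by 6.02 ± 0.76 (adjusted p = 3.91e-05).

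The epithelium showed losses among absorptive genes. Of 18 colonocyte markers 11 fell and none rose (median log2 fold change -1.21), and their summed level was lower in all 3 antibiotic plus DSS libraries. Lypd8 (NCBI gene 70163, chr11:58379032-58390541), whose protein keeps flagellated bacteria from the inner mucus, had 2350.4, 5206 and 2418 CPM in antibiotic plus DSS, against 18213, 17313 and 11240.3 CPM in untreated mice (log2 fold change -2.23 ± 0.44, adjusted p = 0.00173). Guca2a, encoding guanylin, had 419, 587 and 552 CPM in antibiotic plus DSS, against 2642, 3842 and 3148 CPM in untreated mice (log2 fold change -2.63 ± 0.35, adjusted p = 6.12e-05). The keratin gene Krt8 had 1129.9, 1922 and 1283 CPM in antibiotic plus DSS, against 3089, 4357 and 4685 CPM in untreated mice (log2 fold change -1.48 ± 0.27, adjusted p = 0.00102). In these genes replicate 11 lay nearest to the untreated group without reaching it. Krt19 fell by 1.66 ± 0.28 (adjusted p = 5.82e-04), and Cyp2c55, a cytochrome of the colon surface, by 2.34 ± 0.40 (adjusted p = 6.18e-04). Carbonic anhydrase 1, Car1, had 4593, 6057 and 4110.1 CPM in antibiotic plus DSS, against 10251, 7190.0 and 8762 CPM in untreated mice, with no overlap, and missed the threshold (adjusted p = 0.0906). Of 10 goblet and secretory markers none passed the test in edgeR, DESeq2 or limma, and none had an unadjusted p under 0.05. The mucin gene Muc2 had 319, 651 and 449 CPM in antibiotic plus DSS and 509, 609 and 473 CPM in untreated mice (adjusted p = 0.815). Leaving out antibiotic plus DSS replicate 10 or 12 left 6 colonocyte markers lower, as did library totals.

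Among transport and junction genes, calls went in both directions. Of 18 genes of ion, water and butyrate transport 3 rose and 5 fell (median -1.06), beside 12.8% higher and 7.31% lower over all genes. Aqp8, a water channel of surface colonocytes, had 8.02, 36.9 and 15.6 CPM in antibiotic plus DSS, against 65.04, 151 and 104 CPM in untreated mice (log2 fold change -2.40 ± 0.55, adjusted p = 0.00535). Slc16a1, a carrier of butyrate and lactate, had 129, 189 and 129 CPM in antibiotic plus DSS, against 306, 308 and 434 CPM in untreated mice (log2 fold change -1.23 ± 0.29, adjusted p = 0.00564). Scnn1a, the alpha subunit of the epithelial sodium channel, fell by 1.99 ± 0.48 (adjusted p = 0.00675). The chloride secretion gene Cftr was higher, at 56.4, 104 and 61.1 CPM in antibiotic plus DSS, against 36.5, 24.6 and 37.4 CPM in untreated mice (log2 fold change 1.17 ± 0.30, adjusted p = 0.00973), and the call was lost without antibiotic plus DSS replicate 11 (adjusted p 0.0516). Among 15 junction genes 4 fell and 1 rose, beside the same shares over all genes. The gene that rose was Cldn2, which encodes a pore-forming claudin, with 53.6, 81.1 and 49.5 CPM in antibiotic plus DSS, against 13.8, 15.03 and 29.2 CPM in untreated mice (log2 fold change 1.67 ± 0.37, adjusted p = 0.00447). Cldn8, a barrier-forming claudin of the colon, had 31.2, 56.2 and 49.1 CPM in antibiotic plus DSS, against 173, 104 and 145 CPM in untreated mice (log2 fold change -1.63 ± 0.39, adjusted p = 0.00639). Cldn7 fell by 1.53 ± 0.30 (adjusted p = 0.00167). With library totals in place of TMM factors, 3 transport genes rose and 3 fell, and 2 junction genes fell. DESeq2 and limma each gave 8 transport genes lower, and the fit of the compared libraries none higher and 4 lower. Without antibiotic plus DSS replicate 10, 3 transport genes were lower, and without replicate 11, 8 were lower and 1 higher.

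Defence genes of the mucosa were mostly higher where they changed, with 7 of 17 tested up and 1, Lypd8, down. Reg3b (NCBI gene 18489, chr6:78370885-78373466), an antibacterial lectin of the epithelium, had 5519, 5128 and 1270.4 CPM in antibiotic plus DSS, against 213, 475 and 60.7 CPM in untreated mice (log2 fold change 3.99 ± 0.76, adjusted p = 0.00141). Reg3g, its relative that binds gram-positive bacteria, had 1036, 876 and 119 CPM in antibiotic plus DSS, against 42.2, 49.6 and 29.4 CPM in untreated mice (log2 fold change 4.07 ± 0.69, adjusted p = 5.93e-04). Both lectins were lowest in replicate 12, not in replicate 11 as the macrophage genes named above were. Lcn2, which starves bacteria of iron by binding siderophores, had 99.5, 18.04 and 122 CPM in antibiotic plus DSS, against 1.43, 6.08 and 0.917 CPM in untreated mice (log2 fold change 4.84 ± 0.93, adjusted p = 0.00153). Saa3 rose by 4.81 ± 0.93 (adjusted p = 0.00155), and the protease inhibitor gene Slpi by 5.44 ± 0.84 (adjusted p = 2.43e-04). Of 11 repair genes tested 2 rose and 1 fell, beside 12.8% higher and 7.31% lower over all genes. The gene that fell was Areg, encoding the growth factor amphiregulin, with 227, 303 and 247 CPM in antibiotic plus DSS, against 574, 721 and 574 CPM in untreated mice (log2 fold change -1.27 ± 0.32, adjusted p = 0.00925). In xenobiotic metabolism 2 of 17 rose and 4 fell, and Mgst1, a microsomal glutathione transferase, fell by 1.15 ± 0.27 (adjusted p = 0.00662). Without antibiotic plus DSS replicate 10 or 12 or untreated replicate 3, 2 xenobiotic genes were lower. With library totals 2 rose and 1 fell, in the fit of the compared libraries none rose and 1 fell, and in limma none rose and 5 fell; over all genes edgeR called 12.8% higher and 7.31% lower. Lcn2 did not pass in limma (adjusted p = 0.0803), and Mgst1 not with library totals (adjusted p = 0.0621) or in the compared libraries (adjusted p = 0.0503).

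Of 23 cell cycle genes 10 were higher, 13 did not pass and none was lower (median 1.69). Mcm4, part of the replicative helicase, had 37.9, 25.5 and 24.9 CPM in antibiotic plus DSS, against 3.44, 5.79 and 5.58 CPM in untreated mice (log2 fold change 2.58 ± 0.42, adjusted p = 4.45e-04). Mki67, the proliferation antigen, had 58.9, 36.9 and 31.1 CPM in antibiotic plus DSS, against 4.99, 0 and 6.19 CPM in untreated mice (log2 fold change 3.49 ± 0.84, adjusted p = 0.00692). Rrm2, a subunit of ribonucleotide reductase, rose by 3.83 ± 0.79 (adjusted p = 0.00259). The groups did not overlap for these 3 genes. The number of cell cycle genes called was 5 without antibiotic plus DSS replicate 10 and 6 without replicate 11, 3 in limma, 4 in the fit of the compared libraries and 4 without both untreated libraries that held Xist. Rrm2 did not pass in limma (adjusted p = 0.123), nor Mki67 in the compared libraries (adjusted p = 0.107). Of 9 crypt stem and progenitor markers 1 was higher and none lower, a share near the 12.8% higher over all genes.

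Nuclear genes of the respiratory chain fell almost throughout, while the protein genes of the mitochondrial genome did not pass the test. Of 37 nuclear-encoded subunits of complex I 35 were lower and none higher (median log2 fold change -1.30), and of 37 tested of complexes II to V 32 were lower and none higher (median -1.44). Cox6c (NCBI gene 12864, chr15:35931976-35938246), a subunit of cytochrome c oxidase, had 196, 292 and 218 CPM in antibiotic plus DSS, against 891, 1197 and 768 CPM in untreated mice (log2 fold change -2.02 ± 0.32, adjusted p = 2.83e-04). Ndufa1, an accessory subunit of complex I, had 67.6, 84.8 and 78.9 CPM in antibiotic plus DSS, against 278, 359.9 and 254 CPM in untreated mice (log2 fold change -1.95 ± 0.28, adjusted p = 1.45e-04). Cox4i1, another subunit of cytochrome c oxidase, had 512, 681 and 568 CPM in antibiotic plus DSS, against 1527, 2241 and 1309.8 CPM in untreated mice (log2 fold change -1.53 ± 0.27, adjusted p = 7.87e-04). For each of the 3 genes the libraries of both groups lay close together and did not overlap. The iron-sulphur subunit gene Ndufs1 was an exception in complex I, with 91.02, 108 and 94.03 CPM in antibiotic plus DSS and 109, 85.5 and 61.01 CPM in untreated mice (adjusted p = 0.638), and so was Sdha of complex II, with 129.7, 173 and 114 CPM in antibiotic plus DSS and 173, 117 and 214 CPM in untreated mice (adjusted p = 0.459). The colonocyte marker sum was lower in the same libraries, with a median log2 fold change of its 18 members of -1.21, and its part in this result was not tested. Without both untreated libraries that held Xist, 11 subunits of complex I and 14 of complexes II to V were lower, and with library totals 24 and 25 were.

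The 13 protein genes of the mitochondrial genome gave none higher and none lower in edgeR's quasi-likelihood test, with a median log2 fold change of -0.25. At an unadjusted p under 0.05, 1 was higher and 1 lower, and DESeq2 called 1 lower and limma none. The gene mt-Co1, encoding a core subunit of cytochrome c oxidase, had 144642, 159636 and 204473 CPM in antibiotic plus DSS and 167009, 192708 and 243607 CPM in untreated mice (adjusted p = 0.664). All mitochondrially encoded genes together took 43.6% ± 4.83 of counts in antibiotic plus DSS and 43.8% ± 5.93 in untreated libraries (SD, n = 3 each; exact two-sided permutation test, p = 0.9, where 0.1 is the smallest p the design allows).

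NRF1 is a known activator of nuclear respiratory genes. Its motif, searched as GCGCATGCG on both strands, occurred in the 250 bases before the start in 7 of 63 subunit genes with a window (11.1%; the 2 lists hold 75 genes) and in 444 of all 27025 genes (1.64%). The 3 windows shown were chosen among the called subunit genes with a match. They run from 5′ to 3′ in the direction of the gene, with the motif in capitals (RefSeq, GRCm38.p6). They are Cox6a1 at chr5:115348959-115349208, Atp5l at chr9:44920743-44920992 and Atp5k at chr5:108434400-108434649, each on the minus strand. In Cox6a1 and Atp5k 2 matches on opposite strands overlap.
Cox6a1: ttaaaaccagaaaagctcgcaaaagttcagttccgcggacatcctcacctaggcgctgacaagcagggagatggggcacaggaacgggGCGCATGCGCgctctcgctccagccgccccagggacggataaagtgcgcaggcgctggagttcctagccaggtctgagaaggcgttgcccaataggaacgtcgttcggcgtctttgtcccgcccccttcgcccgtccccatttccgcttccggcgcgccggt
Atp5l: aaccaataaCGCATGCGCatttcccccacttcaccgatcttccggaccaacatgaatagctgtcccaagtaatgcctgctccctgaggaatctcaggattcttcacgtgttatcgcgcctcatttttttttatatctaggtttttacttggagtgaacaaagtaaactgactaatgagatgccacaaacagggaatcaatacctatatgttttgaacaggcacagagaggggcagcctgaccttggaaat
Atp5k: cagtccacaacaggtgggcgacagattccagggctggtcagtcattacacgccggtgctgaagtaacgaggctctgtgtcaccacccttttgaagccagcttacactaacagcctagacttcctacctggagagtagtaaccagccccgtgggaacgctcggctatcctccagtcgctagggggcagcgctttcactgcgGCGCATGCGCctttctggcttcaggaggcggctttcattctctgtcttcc
Cox6a1, a subunit of cytochrome c oxidase, had 231, 363 and 256 CPM in antibiotic plus DSS, against 856, 1519 and 849 CPM in untreated mice (log2 fold change -1.92 ± 0.31, adjusted p = 3.30e-04). The ATP synthase genes Atp5l and Atp5k fell by 1.60 ± 0.27 (adjusted p = 5.57e-04) and 1.66 ± 0.31 (adjusted p = 0.00126); both are named for their motif.

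**Figure D4:**
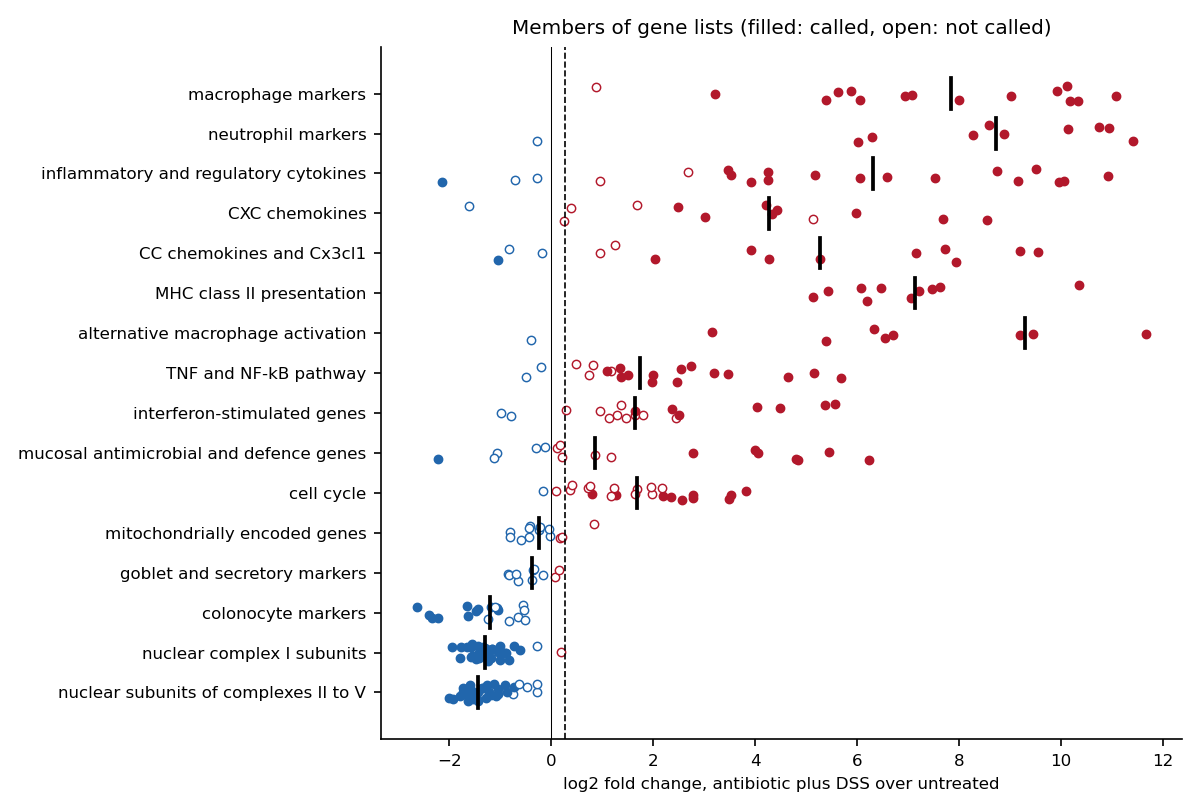
Log2 fold change of antibiotic plus DSS over untreated for the members tested of 16 gene lists; each point is 1 gene, filled where it was called and open where it was not, the vertical tick is the list's median and the dashed line is the median of all genes, 0.27. Genes with no untreated count are left out of the points, since their fitted values are no bound. The medians still include these genes at their fitted values. Immune lists lie to the right, the 2 lists of nuclear respiratory subunits and the colonocyte markers lie to the left, and the mitochondrially encoded genes lie near 0.

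Other metabolic lists held fewer called genes. Of 23 glycolysis and hypoxia genes 5 rose and 3 fell, beside 12.8% higher and 7.31% lower over all genes. Hif1a, the oxygen-regulated transcription factor, had 333, 105 and 185 CPM in antibiotic plus DSS, against 53.7, 10.7 and 49.3 CPM in untreated mice (log2 fold change 2.45 ± 0.54, adjusted p = 0.0037). The lactate exporter Slc16a3 was 878-fold (95% counting interval 300.2 to 4259) higher (adjusted p = 2.21e-05), whereas the glycolytic enzyme gene Aldoa had 564, 574 and 446 CPM in antibiotic plus DSS, against 905, 1166 and 1083 CPM in untreated mice (log2 fold change -0.99 ± 0.26, adjusted p = 0.0111), and the call was lost without antibiotic plus DSS replicate 12 (adjusted p 0.0563). Of 20 genes of fatty acid oxidation and ketogenesis 3 fell and 1 rose, a share near the 20.1% called over all genes, and Hadh, of mitochondrial beta-oxidation, fell by 1.14 ± 0.25 (adjusted p = 0.00418). Of 21 genes of endoplasmic reticulum and heat stress 9 rose and 3 fell, beside the same 12.8% and 7.31% over all genes. Dnajc3, a chaperone gene of the reticulum, had 141, 108 and 134 CPM in antibiotic plus DSS, against 43.5, 35.4 and 29.4 CPM in untreated mice (log2 fold change 1.82 ± 0.25, adjusted p = 9.50e-05). Hsp90b1, encoding the chaperone GRP94, rose by 1.52 ± 0.26 (adjusted p = 6.53e-04), while Ddit3, encoding the stress factor CHOP, had 19.3, 29.1 and 27.9 CPM in antibiotic plus DSS, against 40.8, 99.9 and 57.7 CPM in untreated mice (log2 fold change -1.38 ± 0.34, adjusted p = 0.00815), and the call was lost without untreated replicate 2 (adjusted p 0.056). Of the glycolysis genes 1 was lower without antibiotic plus DSS replicate 10 or untreated replicate 1 or 3 and none without antibiotic plus DSS replicate 12, and of the fatty acid genes 6 were lower without replicate 11 and 5 in DESeq2 or limma. With library totals no glycolysis gene and 1 stress gene fell, and Aldoa did not pass (adjusted p = 0.107). In the fit of the compared libraries 2 glycolysis genes rose and 1 fell, and Hif1a and Ddit3 did not pass (adjusted p = 0.0527 and 0.0511).

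Immediate early genes answer a stimulus without new protein synthesis. Of 15 tested, 1 was higher and 3 were lower, beside 12.8% and 7.31% over all genes. With library totals 1 was higher and 1 lower. The gene that rose was Ier3, with 131, 48.2 and 131 CPM in antibiotic plus DSS, against 12.1, 12.6 and 20.8 CPM in untreated mice (log2 fold change 2.77 ± 0.42, adjusted p = 2.04e-04). Btg2, an antiproliferative gene, fell by 1.52 ± 0.27 (adjusted p = 7.10e-04). Of 23 lysosome genes 11 rose and 2 fell, with Lgmn, encoding the protease legumain, at 305, 66.4 and 234 CPM in antibiotic plus DSS, against 10.5, 6.57 and 22.1 CPM in untreated mice (log2 fold change 3.95 ± 0.56, adjusted p = 1.17e-04). Of the lysosome genes 5, 6 and 7 were higher without antibiotic plus DSS replicate 10, replicate 12 and untreated replicate 1, and 4 in the fit of the compared libraries. Of 11 haem and iron genes tested 6 rose and none fell. Hp, encoding haptoglobin, had 297, 28.3 and 254 CPM in antibiotic plus DSS, against 0.860, 0.681 and 0.535 CPM in untreated mice (log2 fold change 8.12 ± 0.99, adjusted p = 2.65e-05). Hmox1, which degrades haem, rose by 3.35 ± 0.72 (adjusted p = 0.00328). In limma 3 haem and iron genes were higher, and Hp did not pass (adjusted p = 0.0608).

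The 15 largest increases among non-overlapping genes of at least 5 CPM all belonged to genes without a count in the untreated group, so that only lower bounds can be given. They were, with the bound for each, Ncf1 (1857-fold), Adam8 (1484-fold), Itgax (1422-fold), Sirpb1c (1422-fold), Gm6377 (1389-fold), Ccr2 (1312-fold), Sirpb1b (1153-fold), Adgre4 (1098-fold), Ly86 (1094-fold), F5 (949-fold), Clec4a3 (798-fold), Sirpb1a (763-fold), Gpr84 (742-fold), Aif1 (714-fold) and Ifi203 (685-fold). Ly86 encodes MD-1, the partner of a Toll-like receptor relative on antigen-presenting cells, and Adgre4 a relative of F4/80. Gpr84, a receptor for medium-chain fatty acids, had 41.6, 8.17 and 45.9 CPM (adjusted p = 6.29e-06). The 3 Sirpb1 genes are near copies between which reads may be split.

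The 15 largest decreases began with Klk15, a kallikrein protease gene at 0, 0.579 and 0 CPM in antibiotic plus DSS, against 18.99, 28.8 and 4.28 CPM in untreated mice (log2 fold change -6.44 ± 1.45, adjusted p = 0.00548). Its fold change became -12.22 without antibiotic plus DSS replicate 11, the only library of its group with a count. Sycn (NCBI gene 68416, chr7:28540885-28542210), encoding syncollin, a protein of secretory granules, had 21.4, 94.2 and 41.1 CPM in antibiotic plus DSS, against 1679.5, 3722 and 1211 CPM in untreated mice (log2 fold change -5.40 ± 1.03, adjusted p = 0.00144). Lars2, encoding the mitochondrial leucyl-tRNA synthetase, had 281, 164 and 404 CPM in antibiotic plus DSS, against 13403, 13940.0 and 5983 CPM in untreated mice (log2 fold change -5.29 ± 1.06, adjusted p = 0.00205). Both were abundant in untreated mice and did not overlap between groups. Counts under gene numbers without a name also took a larger share of untreated libraries (6.36%, 7.32% and 3.70%). In antibiotic plus DSS libraries that share was 1.57%, 1.39% and 1.57%. The part of such differences between libraries in the fall of Lars2 was not tested. Fxyd4, a regulator of the sodium pump, had 1.99, 14.7 and 4.63 CPM in antibiotic plus DSS, against 203, 387 and 74.9 CPM in untreated mice (log2 fold change -4.96 ± 1.19, adjusted p = 0.00694). Tgm3, an epithelial transglutaminase, had 12.8, 61.9 and 21.9 CPM in antibiotic plus DSS, against 1004, 525 and 521 CPM in untreated mice (log2 fold change -4.41 ± 0.68, adjusted p = 2.49e-04). The cytochrome genes Cyp2c69 and Cyp2c67 fell by 4.56 ± 0.90 (adjusted p = 0.00173) and 4.18 ± 0.88 (adjusted p = 0.00285). The others were 5033404E19Rik (-6.32 ± 1.52, and -10.64 without antibiotic plus DSS replicate 11), Odf3b (-6.13 ± 1.52, and -11.08 without replicate 10), Gm11538 (-5.10 ± 0.71), Ell3 (-4.88 ± 0.99), Tmem40 (-4.86 ± 1.40), Gjb5 (-4.81 ± 0.87), Capsl (-4.23 ± 0.91) and Cyp2f2 (-4.11 ± 1.24). For Tmem40 the call was lost without antibiotic plus DSS replicates 10 or 11 (adjusted p 0.0603 and 0.0593), and it became -8.52 without replicate 12. For Cyp2f2 the call was lost without antibiotic plus DSS replicates 10 or 12 and without untreated replicate 1 (adjusted p 0.104, 0.0789 and 0.0657).

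Levels after antibiotic plus DSS were also set against those after DSS without antibiotic in wild-type mice (3 libraries, replicates 7, 8 and 9). This comparison uses the same antibiotic plus DSS libraries as the main one. Of 16958 genes 591 were higher (3.49%) and 157 lower (0.926%) in antibiotic plus DSS, or 4.41% in either direction. Without antibiotic plus DSS replicate 11, 922 genes were higher and 391 lower, and leaving out any 1 of the other 5 libraries left 200 to 291 higher and 14 to 72 lower. Adgre1 had 166, 18.3 and 117 CPM in antibiotic plus DSS, against 1.55, 2.61 and 1.14 CPM in DSS alone (log2 fold change 5.83 ± 0.80, adjusted p = 0.00122). Il1b had 2799.9, 435 and 1855 CPM in antibiotic plus DSS, against 85.9, 101 and 66.2 CPM in DSS alone (log2 fold change 4.33 ± 0.62, adjusted p = 0.00122). H2-Aa had 2016, 292 and 1426 CPM in antibiotic plus DSS, against 173, 67.1 and 57.5 CPM in DSS alone (log2 fold change 3.65 ± 0.83, adjusted p = 0.0176), a call lost without antibiotic plus DSS replicate 10 or 12 (adjusted p = 0.0929 and 0.0526) and without DSS replicate 8 or 9 (adjusted p = 0.0935 and 0.0924). For S100a8 the levels of 231, 63.2 and 254 CPM in antibiotic plus DSS and 176, 121 and 251 CPM in DSS alone overlapped (adjusted p = 1). The macrophage marker sum was 5926, 883 and 6732 in antibiotic plus DSS, against 176, 127 and 161 in DSS alone, and the neutrophil sum was 2581, 585 and 2092 in antibiotic plus DSS and 1024, 731 and 1283 in DSS alone, with overlap.

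The epithelial defence genes Ang4, Retnlb and Itln1, named after their values were seen, stood higher than after DSS alone and did not pass the test against untreated mice. Ang4, encoding an antibacterial angiogenin, had 64.9, 235 and 158 CPM in antibiotic plus DSS, 5.58, 2.48 and 6.71 CPM in DSS alone and 162, 136 and 128 CPM in untreated mice. It was 4.96 ± 0.66 higher on the log2 scale than in DSS alone (adjusted p = 0.00122) and gave an adjusted p of 0.93 against untreated mice. Retnlb, encoding the goblet cell product RELM beta, had 119.5, 321 and 166 CPM in antibiotic plus DSS, 11.2, 18.03 and 21.02 CPM in DSS alone and 48.4, 169.9 and 50.99 CPM in untreated mice, with a log2 fold change of 3.59 ± 0.54 over DSS alone (adjusted p = 0.00146). Itln1, encoding an intelectin, was 3.75 ± 0.75 higher than in DSS alone (adjusted p = 0.00794), a call lost without DSS replicate 7 or 8 (adjusted p = 0.0604 and 0.0549). Reg3b had 5519, 5128 and 1270.4 CPM in antibiotic plus DSS and 3464, 2428 and 2407 CPM in DSS alone (adjusted p = 0.817).

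**Figure D5:**
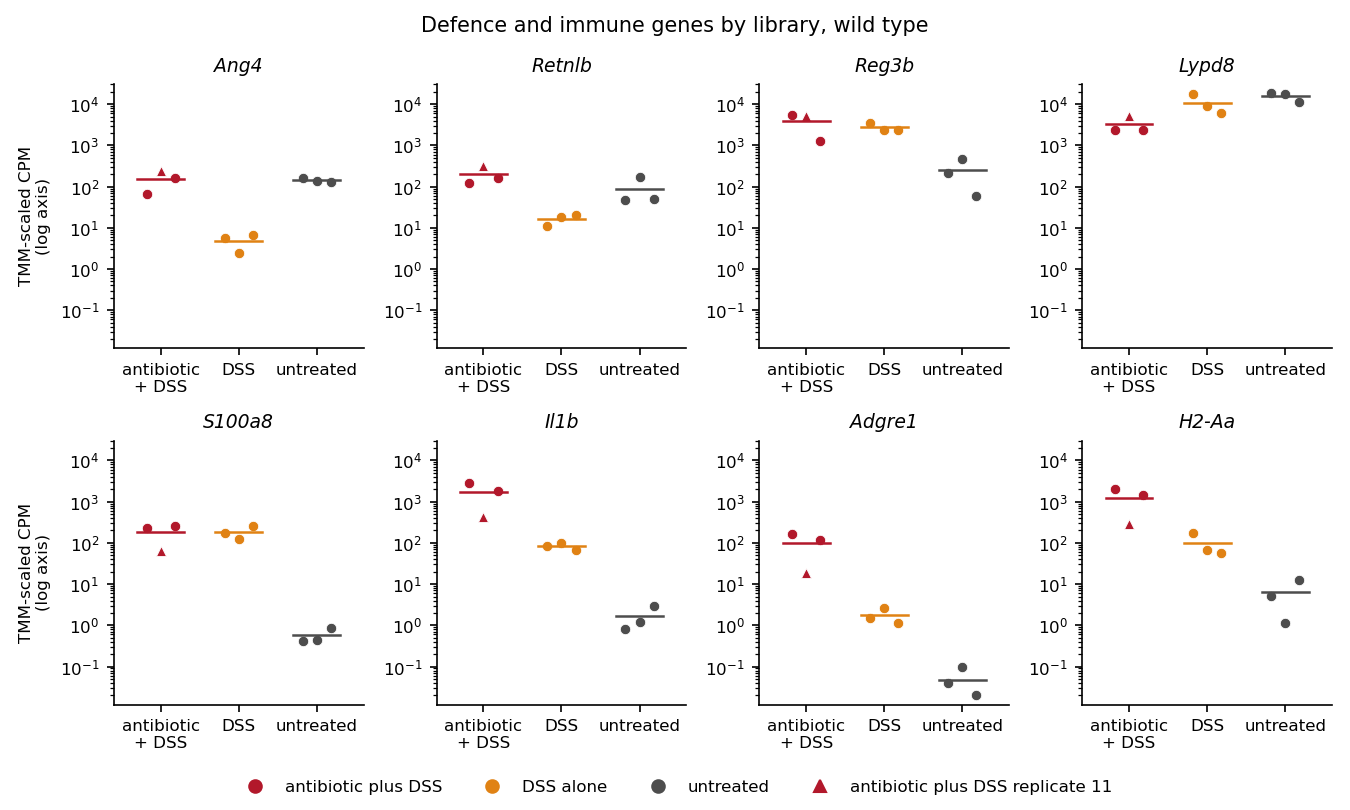
Levels of 8 genes in TMM-scaled CPM (log axis) by library in antibiotic plus DSS, DSS alone and untreated wild-type mice; each point is 1 library, the bar is the group mean and levels under 0.02 CPM are drawn at 0.02. Ang4 and Retnlb are lowest in DSS alone, S100a8 is lowest in untreated mice, and Lypd8 is lowest in antibiotic plus DSS.

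In MCJ-deficient mice the same change, from 3 antibiotic plus DSS and 2 untreated libraries, was set against the change in wild-type mice. Dnajc15 had 21, 22 and 105 counts in the antibiotic plus DSS libraries and 104 and 111 counts in the untreated libraries of MCJ-deficient mice, against 827, 817 and 939 counts and 1286, 359 and 1028 counts in wild-type mice. In 9 of 16958 genes (0.0531%; 4 or 0.0236% upward and 5 or 0.0295% downward) the change differed by edgeR's quasi-likelihood test of the difference. The globin genes Hba-a1, Hba-a2 and Hbb-b1 and the epithelial gene Plet1 changed more upward in MCJ-deficient mice, and Cenpq, Sis, Reg4, Bicd1 and Npy1r less upward or downward. Single libraries decided the number, which was 78 without wild-type untreated replicate 3, 23 without replicate 1, 14 without replicate 2, 4 without MCJ-deficient antibiotic plus DSS replicate 22, 2 without MCJ-deficient untreated replicate 14 and 1 without replicate 13. Xist and Ddx3y divided the MCJ-deficient libraries by treatment, with 9, 1 and 0 Xist counts in antibiotic plus DSS and 7176 and 7950 in untreated mice, and their part in the difference was not tested.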

How the data were processed

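RNA-seq of colon macrophage preparations was deposited by the authors as raw counts per gene, in 1 table per condition (27179 genes, identified by NCBI gene number). CASAVA 1.8.2, FastQC, Trim Galore, STAR 2.5.4 and DESeq2 were used with mm10, per the submitters' processing notes; the counter, annotation and strand setting are not given in the sources used here, so overlapping, antisense and near-identical genes may share reads. Libraries were made with a NuGEN Universal Plus mRNA-Seq kit, per the labels' protocols. The 3 tables were joined by gene number and named from RefSeq (25275 genes) and GENCODE (18 genes). Counts under gene numbers without a name made up 1.39% to 1.57% of antibiotic plus DSS libraries and 3.70% to 7.32% of untreated libraries.

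Groups followed the sample titles. edgeR 4.0.16 (R 4.3.3) fitted 6 group means to all 17 libraries after filterByExpr and TMM scaling, with 11 residual degrees of freedom before the prior, and the quasi-likelihood test was adjusted by Benjamini-Hochberg over 16958 genes at 0.05. The test script was tested on simulated data. Alternatives were DESeq2 1.42.0, limma 3.58.1 (voom with quality weights), a fit of the compared libraries, no filter, RLE factors, library totals, mitochondrial genes left out and single libraries left out. The members and the 49 lists (717 entries, of which 716 had a gene number) were chosen with earlier results of these data known. Genes were named as the first 3 of a list, up to 4 further called members with the smallest p, and the 15 largest increases and decreases among called, non-overlapping genes averaging at least 5 CPM; exceptions are marked. Intervals (95%) and the floor of 3 counts cover counting error only, and PCR reads are not independent molecules. Libraries of the main comparison held 29194744 to 36461771 counts. Promoter windows come from RefSeq tables (GRCm38.p6), of which 75.2% of the 25174 compared matched a GENCODE transcript start; the 250 bases before the start were searched. Python 3.11.15 with pandas 2.3.3, numpy 2.4.6 and scipy 1.17.1 made the tables.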

Additional observations from a re-analysis of the deposited data

Results flagged for a closer look

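For 9 genes the change with antibiotic plus DSS differed between genotypes in edgeR's quasi-likelihood test of the difference, given here on the log2 scale as the change in MCJ-deficient mice minus that in wild-type mice. At an unadjusted p under 0.05 there were 1400 such genes. Of the 9 genes called, 0 passed under every other tool, fit, filter and scaling. In limma 8 of them missed the threshold, and in the fit of the compared libraries 8 did. Levels are TMM-scaled CPM.

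The haemoglobin genes differed by 6.10 for Hba-a1 (adjusted p = 0.0336), 6.28 for Hba-a2 (adjusted p = 0.0229) and 6.49 for Hbb-b1 (adjusted p = 0.0135). Hba-a1 had 2937, 4511 and 274 CPM in antibiotic plus DSS and 1.74 and 1.39 CPM in untreated MCJ-deficient mice, against 134, 125 and 103 CPM and 4.91, 3.36 and 6.80 CPM in wild-type mice. Plet1 differed by 3.59 (adjusted p = 0.0113), with 302, 202 and 279 CPM in antibiotic plus DSS and 6.55 and 7.97 CPM in untreated MCJ-deficient mice, against 46.6, 76.1 and 51.0 CPM and 18.5, 28.6 and 11.3 CPM in wild-type mice. Reg4, a lectin gene of secretory cells, differed by -6.94 (adjusted p = 0.0129), with 0.919, 1.09 and 0.223 CPM in antibiotic plus DSS and 171 and 129.8 CPM in untreated MCJ-deficient mice, against 62.6, 29.04 and 22.9 CPM and 82.96, 38.95 and 63.3 CPM in wild-type mice. The fitted differences of Sis (-6.97, adjusted p = 0.00554), Cenpq (-7.85, adjusted p = 0.0368), Bicd1 (-9.38, adjusted p = 0.0355) and Npy1r (-17.92, adjusted p = 0.0355) rest on groups with 0 to 2 counts in all and are no measure of size. In the wild-type untreated libraries 1, 2 and 3, Sis had 1, 1 and 0 counts, Cenpq 0, 0 and 1, and Bicd1 and Npy1r none, and Npy1r had none in the MCJ-deficient antibiotic plus DSS libraries.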

How the results depend on the processing

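No paired analysis was possible because the groups share no replicate numbers. Against untreated mice, the counts of 2169 higher and 1240 lower became 946 and 666 in a fit of the 6 compared libraries (13739 genes tested, fewer degrees of freedom), 542 lower with library totals, and 1410 to 2443 higher and 708 to 1222 lower with 1 library left out; without both untreated libraries that held Xist, an alternative chosen after seeing the data that leaves 1 untreated library assumed to vary like the other groups, they were 994 and 391. Against DSS alone (591 and 157), DESeq2 gave 1039 and 341, limma 1349 and 730, the compared libraries 91 lower, and leaving out 1 library 200 to 922 higher and 14 to 391 lower. The 9 genotype differences became 162 in DESeq2, 1 in limma, 1 in the compared libraries, 38 without a filter, 24 without both Xist libraries and 1 to 78 with 1 library left out. The other alternatives kept these counts within 1.5 times.

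Of 142 called genes named against untreated mice, 135 passed whichever single library was left out and 113 under every other tool, fit, filter and scaling, while 28 missed the threshold without both Xist libraries. In limma 15 calls were lost, of Arg1, Ccl5, Ccr3, Chil3, Chil4, Cyp2f2, F13a1, Gbp2, Hp, Lcn2, Nos2, Pdpn, Retnlg, Rrm2 and S100a4 (adjusted p 0.05 to 0.267). In the compared libraries 12 were lost, of 5033404E19Rik, Cftr, Csf1r, Ddit3, Ell3, Hif1a, Hpgd, Ly6c2, Mgst1, Mki67, Odf3b and Tmem40 (0.0501 to 0.134), with library totals those of Aldoa, Hpgd, Mgst1 and Pycard (0.0621 to 0.194), and with RLE factors that of Hpgd (0.0524). Without both Xist libraries the calls lost were of Aldoa, Areg, Atp5k, Cd4, Cftr, Cldn2, Cldn8, Cox4i1, Ddit3, Fxyd4, Gbp2, Hadh, Hif1a, Hpgd, Hsp90b1, Klk15, Lypd8, Mgst1, Nfkbiz, Nos2, Pdpn, Pecam1, Plac8, Pycard, Saa3, Scnn1a, Tlr4 and Tmem40 (0.0502 to 0.439). Sign changes were seen only in named genes that missed the threshold: with library totals Muc2 was at 0.22, Casp1 at 0.051, Sdha at 0.086, mt-Co1 at 0.11 and Ly6g at 0.12, and Ly6g at 0.77 without both Xist libraries; Ang4 was at -0.16 in limma. With 1 library left out Ang4 ranged over -0.35 to 0.47 and Muc2 over -0.46 to 0.052. Against DSS alone Reg3b was at -0.19 in limma, and S100a8 at 0.066 in DESeq2, 0.066 with RLE factors, 0.0094 in the compared libraries, 0.27 in limma and -0.31 to 0.41 with 1 library left out. Among list medians, library totals turned goblet (0.0067), xenobiotic (0.058), mitochondrially encoded (0.11) and glycolysis (0.30) genes, and leaving out mitochondrial genes turned endoplasmic reticulum and heat stress (-0.032). Other medians turned for goblet markers (0.395 without both Xist libraries), epithelial repair (-0.307 without antibiotic plus DSS replicate 12), glycolysis (0.0772 without that library, 0.0085 without untreated replicate 2) and B cell markers (-0.243 without antibiotic plus DSS replicate 10, -2.51 in the compared libraries, with 1 marker tested). Without both Xist libraries the numbers called fell by over 1.5 times in many lists, among them CC chemokines (5 higher), Toll-like and NOD receptors (8), TNF and NF-kB genes (8), alternative activation (9), lysosome (3), T and NK cell, smooth muscle and adipocyte markers (none) colonocyte markers (6 lower), complex I (11 lower) and complexes II to V (14 lower). Of CXC chemokines 4 were higher in the compared libraries and 5 in limma. The difference in mitochondrial share was -0.173 percentage points, and -2.64 to 3.11 with 1 library left out (2.27 without antibiotic plus DSS replicate 10, 3.11 without untreated replicate 3). The causes were not tested. Depth limits genes with no count in the untreated group to bounds.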
